A study of Mus musculus with 6 samples.

Results

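The genes described here are 10 heat shock proteins and chaperones: Hspa1a, Hspa1b, Hspa8, Hsph1, Dnajb1, Hsp90aa1, Hsp90ab1, Hspa5, Hspd1 and Hspe1. They were chosen by name and matched through the Ensembl identifiers, and make up 10 of the 49315 genes counted in 6 RNA sequencing libraries of mouse CBir1 TCR Tg CD4+ T cells. These are CD4 T cells with a transgenic T-cell receptor against a bacterial flagellin. Each condition had 1 library, so no value has a replicate error, and whether a library came from 1 mouse or several is not given in the sources used here.

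In 5 conditions the cells were donor cells sorted from the spleens of C57BL/6 CD45.2 recipients. Every recipient got 2000000 donor cells of CD4+CD44- phenotype that carried CD45.1 (day 0) and 2 intraperitoneal immunisations (days 1 and 7), with 50 ug of the CBir1 flagellin and CT at 1 ug. On days 28 and 35, 4 of these groups received 3 ug MEP1 intravenously, each time with 5 days of intraperitoneal CMC (the vehicle), metformin in CMC, rapamycin in CMC or both inhibitors in CMC. They are called MEP1+CMC, MEP1+Metformin, MEP1+Rapamycin and the combination. The No treatment group received neither MEP1 nor an inhibitor in that period. All 5 groups were then challenged with 3 ug MEP1 on day 56, and cells were sorted on day 63, so the inhibitor injections had ended weeks before the sort. The sixth library was a naive CD4 control with the same transgenic receptor, whose handling is not described further. Metformin inhibits mitochondrial complex I and activates AMPK, and rapamycin inhibits the growth kinase complex mTORC1.

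Chaperones bind unfolded stretches of other proteins and help them to fold, to stay soluble or to be degraded. In the cytosol, HSP70 proteins work with J-domain partners, which deliver clients and trigger ATP hydrolysis, and with exchange factors, which release ADP, and they pass some clients on to HSP90. Heat shock factor 1 drives the inducible members of the group when unfolded protein accumulates, whereas the endoplasmic reticulum and the mitochondria hold chaperones of their own that answer to separate stress signals. In T cells, activation raises protein synthesis and with it the demand for folding, and tissue dissociation and sorting are also known to induce some heat shock genes.

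Total counts per library lay between 26139000 for the naive library and 60622310 for No treatment. Levels are given as CPM, each gene's counts relative to the total of its library, after TMM scaling (edgeR's trimmed mean of log ratios), and 12928 genes passed the filter of at least 2 CPM and 10 counts in at least 1 library, the 10 chaperone genes among them. All 18 CD4 T-cell genes examined were detected in each library, with Cd4 between 557 and 1116 TMM CPM. RNA of other cells was also present: the summed level of 17 macrophage, monocyte and dendritic cell markers was 4195 TMM CPM in No treatment, 545 to 892 in the MEP1 libraries and 98.3 in the naive library. The female-specific transcript Xist stood at 262 TMM CPM in MEP1+CMC and at 0.49 or lower in the other 3 MEP1 libraries, in which the Y-linked gene Ddx3y stood at 62.0 to 95.8. MEP1+CMC therefore differs from those libraries in sex-linked expression as well as in treatment, and treatment and sex cannot be told apart in any comparison with it, whereas the combination, MEP1+Rapamycin and MEP1+Metformin libraries are alike in this respect. No treatment held both Xist (24.2 TMM CPM) and Ddx3y (35.9). Ribosomal RNA-like loci held 15.4% of all counts in the naive library, 3.13% in MEP1+Rapamycin and 1.00% to 1.28% in the others. The count column of the No treatment file is headed with the words no challenge, against its label and protocol, and the label was used.

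Stretches upstream of the RefSeq starts of the genes that the results turn on are shown first, with matches to heat shock or endoplasmic reticulum stress elements. All come from RefSeq promoter windows on GRCm38.p6, which run from 250 bases before to 50 bases after the annotated start and were present for 7 of the 10 genes, not for Hspa8, Hsp90aa1 or Hsp90ab1. Heat shock elements are built of TTC and GAA units in alternation, each unit 2 bases from the next. Capitals mark a match of 2 such units in the 150 bases upstream of the intronless genes Hspa1a (chr17:34972157-34972306, minus strand) and Hspa1b (chr17:34959239-34959388, minus strand). The 2 stretches are identical at 149 of 150 bases.
Hspa1a: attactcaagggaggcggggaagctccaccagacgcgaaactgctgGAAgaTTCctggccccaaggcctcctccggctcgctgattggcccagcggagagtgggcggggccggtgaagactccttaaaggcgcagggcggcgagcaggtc
Hspa1b: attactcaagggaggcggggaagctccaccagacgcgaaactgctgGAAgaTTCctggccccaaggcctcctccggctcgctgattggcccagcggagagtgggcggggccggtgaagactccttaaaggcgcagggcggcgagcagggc
The pair of units GAANNTTC begins 104 bases before the start in each. GAANNTTC or TTCNNGAA, searched on both strands, occurs in 15.1% of all 32851 windows, so the match alone is common.

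Hspa5 is shown for its endoplasmic reticulum stress element, a CCAAT and a CCACG separated by 9 bases, which binds the factors of the unfolded protein response. It lies 65 bases before the start (stretch chr2:34772020-34772049, plus strand, element ends in capitals), and the element occurs on either strand in 0.119% of the windows. GENCODE M21 annotates a start further upstream, so that all 30 bases shown also lie in an exon of Hspa5 there.
Hspa5: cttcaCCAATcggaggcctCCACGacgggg
Hspe1 and Hspd1 are neighbours on chromosome 1 in opposite orientation, and their windows share 1 heat shock element of 4 units, shown on the plus strand (chr1:55088054-55088083, units in capitals). All 30 bases lie in an exon of Hspd1 in GENCODE M21.
Hspe1: gtccgTTCtaGAAccTTCcgGAAggccccg
The element begins 89 bases before the Hspe1 start, and on the other strand 144 bases before the Hspd1 start. An element of 3 units (TTCNNGAANNTTC or GAANNTTCNNGAA, both strands) occurs in 0.603% of the windows. The windows of Hsph1 also hold one, which lies downstream of the annotated starts. In the windows of Hspa1a and Hspa1b only the form of 2 units was found, and neither form was found in the Dnajb1 window. These matches describe letters and not bound sites.

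**Figure D1:**
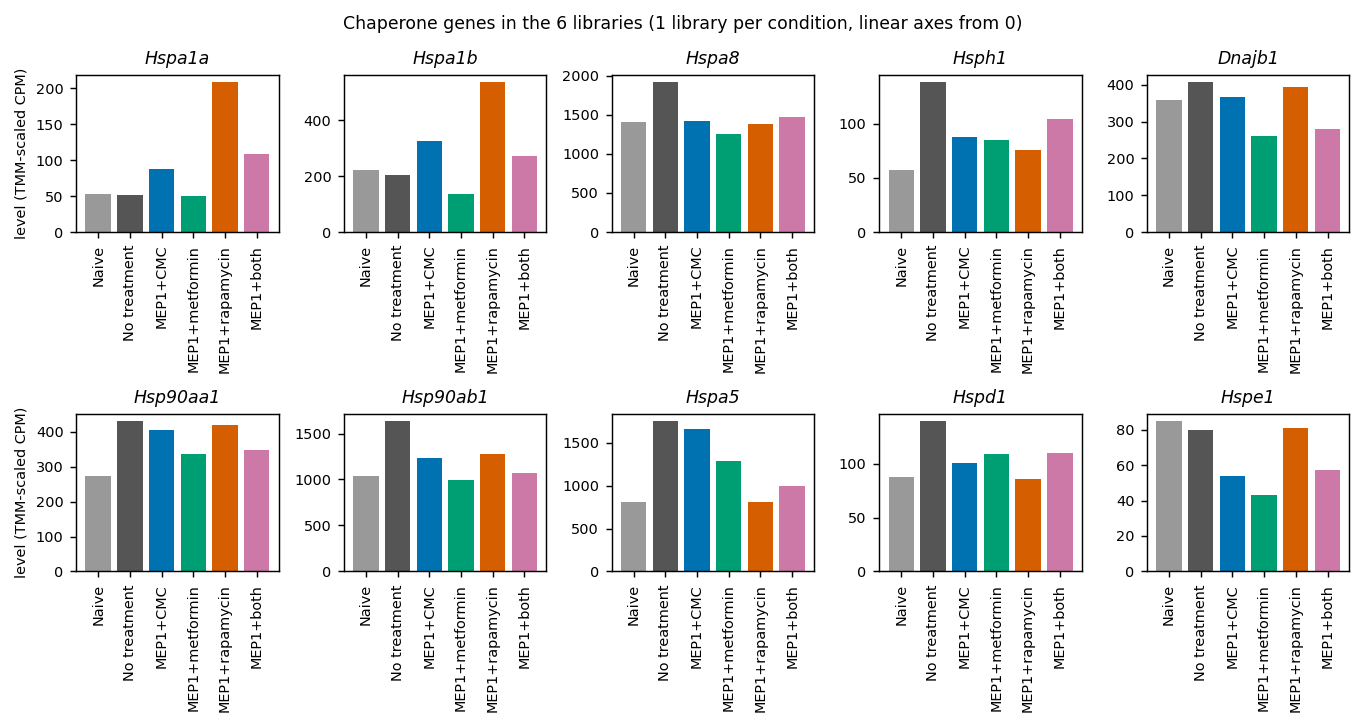
Levels of the 10 chaperone genes (linear axes from 0, TMM CPM) in the 6 libraries, with 1 bar per library and no replicates. Hspa1a and Hspa1b are highest in MEP1+Rapamycin (209 and 536), Hspa5 is lowest there and in the naive library (810 and 814), and Hspa8 has the smallest relative range.

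Per kilobase of exon, Hsp90ab1 was the most abundant of the 10 in every library, with 333 to 544 TMM CPM per kilobase. Hspa8 with 293 to 446 and Hspa5 with 192 to 414 were the next 2. Hsph1, at 7.90 to 19.1 on the same scale, was the least abundant except in No treatment, where Hspa1a was lower (17.3). Hspa1a and Hspa1b spanned the widest range over the 6 libraries, with a highest level 4.14 and 3.96 times the lowest. Hsph1, Hspa5 and Hspe1 followed with 2.41, 2.16 and 1.97 times, and the other 5 spanned 1.52 to 1.64 times, against a median of 1.95 times over all genes kept.

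Hspa1a and Hspa1b encode the stress-inducible HSP70. Hspa1a (ENSMUSG00000091971, chr17:34969190-34972156, GRCm38) stood at 52.5 TMM CPM in the naive library, 51.4 in No treatment, 87.1 in MEP1+CMC, 50.4 in MEP1+Metformin, 209 in MEP1+Rapamycin and 109 in the combination. Hspa1b (ENSMUSG00000090877, chr17:34956436-34959238) stood at 222, 204, 325, 135, 536 and 271 in the same order. For each gene the library with rapamycin alone was the highest and the library with metformin alone the lowest, with the combination between them, although for Hspa1a the No treatment and naive libraries were close to that lowest level.

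Both copies were lower in the library with metformin than in the library without it, with and without rapamycin. Hspa1a was 1.73-fold lower in MEP1+Metformin than in MEP1+CMC (log2 ratio -0.79, 95% counting interval -0.86 to -0.72) and 1.92-fold lower in the combination than in MEP1+Rapamycin (-0.94, -0.99 to -0.89). Hspa1b was 2.40-fold lower in the first pair of libraries (-1.26, -1.30 to -1.22) and 1.98-fold lower in the second (-0.99, -1.02 to -0.95). These 2 pairs share no library, and the second lies within the libraries with low Xist. The intervals cover counting error only.

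Rapamycin went with higher levels in both settings. Hspa1a was 2.40-fold higher in MEP1+Rapamycin than in MEP1+CMC (log2 ratio 1.26, interval 1.21 to 1.31) and 2.16-fold higher in the combination than in MEP1+Metformin (1.11, 1.05 to 1.18). Hspa1b was 1.65-fold higher in the first pair (0.72, 0.69 to 0.75) and 2.00-fold higher in the second (1.00, 0.96 to 1.04). With both inhibitors the copies came out near MEP1+CMC, with log2 ratios of 0.32 for Hspa1a and -0.26 for Hspa1b. That last comparison shares the MEP1+CMC library with 2 of the others.

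**Figure D2:**
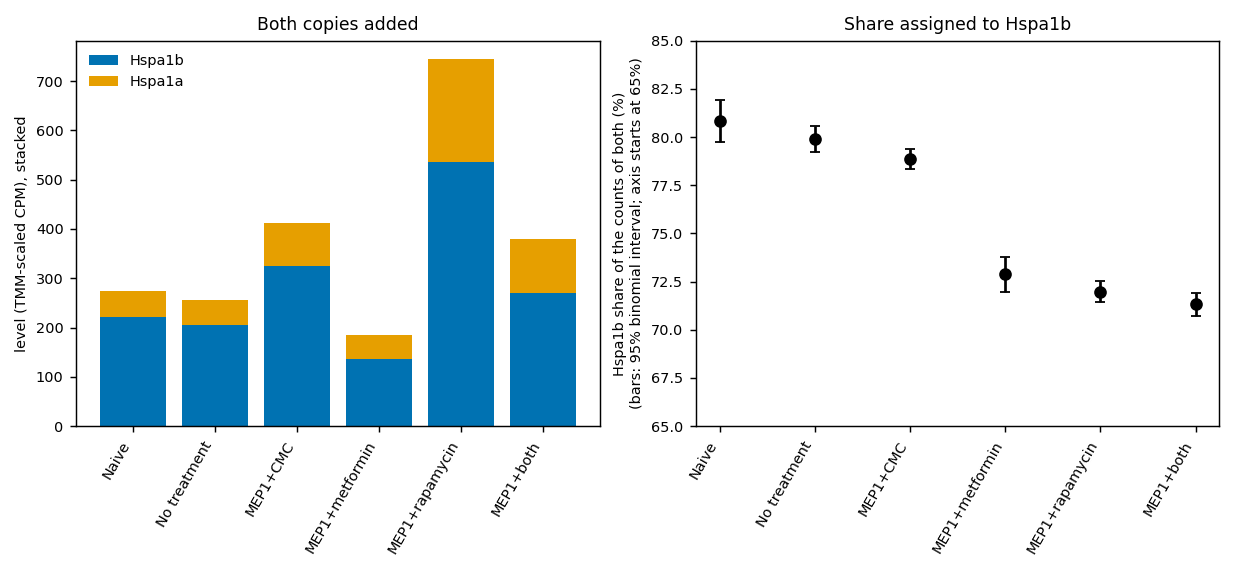
Left, the levels of Hspa1a and Hspa1b stacked (TMM CPM, axis from 0), 1 bar per library. Right, the percentage of the counts of both copies assigned to Hspa1b with its 95% binomial interval, on an axis from 65%; the naive, No treatment and MEP1+CMC libraries lie at 78.9% to 80.8% and the 3 inhibitor libraries at 71.3% to 72.9%.

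The copies are partly indistinguishable to short reads: 58.8% of the 50-base stretches of Hspa1a transcripts also occur in Hspa1b, and 62.3% of those of Hspa1b occur in Hspa1a. How reads with several alignments were counted is not given in the sources used here, so the split between the copies is uncertain and their sum was taken as well. Summed, they stood at 274 TMM CPM in the naive library, 256 in No treatment, 412 in MEP1+CMC, 186 in MEP1+Metformin, 745 in MEP1+Rapamycin and 380 in the combination. The sum was 2.22-fold lower with metformin without rapamycin and 1.96-fold lower with it, and 1.81-fold higher with rapamycin without metformin and 2.04-fold higher with it. Hspa1b took 80.8%, 79.9% and 78.9% of the summed counts in the naive, No treatment and MEP1+CMC libraries, and 72.9%, 71.98% and 71.3% in MEP1+Metformin, MEP1+Rapamycin and the combination, with exact 95% intervals (Clopper-Pearson) that do not overlap between these sets of libraries. The 3 libraries with the lower share are the ones with high Y-linked and low Xist levels, and the part of that difference in the share was not tested.

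In the 2 by 2 design of the 4 MEP1 libraries, edgeR's quasi-likelihood test fitted metformin and rapamycin as additive terms, with Benjamini-Hochberg adjustment over the 12928 genes. The fit leaves 1 residual degree of freedom, and each gene's spread was moderated towards that of the other genes. Hspa1b fell in the metformin term, by 1.12 on the log2 scale (SE 0.22, adjusted p = 0.0295, lower in 2 of 2 pairs), the single chaperone gene called beside a background of 0.186% of genes called. Hspa1a had a fitted change of -0.87 in that term (SE 0.21, edgeR adjusted p = 0.155). Hspa1a rose in the rapamycin term, by 1.19 (SE 0.21, edgeR adjusted p = 0.0065, higher in 2 of 2 pairs), again the single gene called, beside 0.309% of all genes. Hspa1b had a change of 0.86 there (SE 0.22, edgeR adjusted p = 0.132). The call rests on the handling of counts: with DESeq2's size factors or Wald test both copies were called in both terms (0.139% and 0.232% of all genes for metformin and 0.309% and 0.588% for rapamycin, with the size factors and the Wald test), and with the copies summed neither term reached the threshold (edgeR adjusted p = 0.0534 for metformin and 0.0788 for rapamycin). Without the filter on low counts, edgeR called no gene in either term (adjusted p from 0.899 to 0.910 for both copies).

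**Figure D3:**
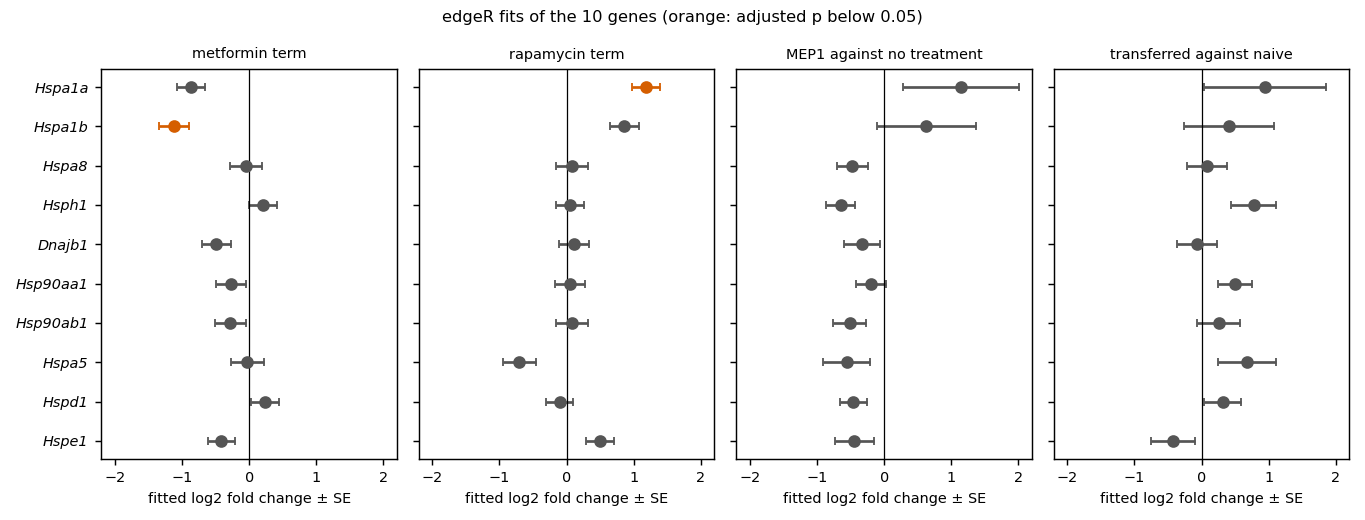
Fitted log2 fold changes of the 10 genes with their standard errors in 4 edgeR fits; orange marks an adjusted p below 0.05. Hspa1b in the metformin term (-1.12) and Hspa1a in the rapamycin term (1.19) are the 2 orange points.

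Hspa8 encodes HSC70, the constitutive cytosolic HSP70. Hspa8 (ENSMUSG00000015656, chr9:40800984-40810087) stood at 1407 TMM CPM in the naive library, 1918 in No treatment, 1425 in MEP1+CMC, 1258 in MEP1+Metformin, 1379 in MEP1+Rapamycin and 1467 in the combination. It was highest in No treatment, and the other libraries lay close together. Metformin gave log2 ratios of -0.18 without and 0.09 with rapamycin, and rapamycin gave -0.05 without and 0.22 with metformin. Scaling with DESeq2's size factors turned the metformin value with rapamycin and the rapamycin value without metformin to the other sign, and so did TMM over the kept genes. The fitted changes were -0.05 (SE 0.24) for metformin and 0.09 (SE 0.24) for rapamycin, with edgeR adjusted p of 0.970 and 0.981.

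Dnajb1 encodes HSP40, the J-domain partner of the cytosolic HSP70s. Dnajb1 (ENSMUSG00000005483, chr8:83608193-83612653) stood at 357 TMM CPM in the naive library, 408 in No treatment, 366 in MEP1+CMC, 260 in MEP1+Metformin, 393 in MEP1+Rapamycin and 281 in the combination. The 2 libraries with metformin were the lowest of the 6. The log2 ratio with metformin was -0.49 (interval -0.52 to -0.46) without rapamycin and -0.48 (-0.52 to -0.45) with it, close to each other. The fitted metformin change of -0.49 (SE 0.22) had an unadjusted p of 0.0357 and an edgeR adjusted p of 0.668. With rapamycin the ratios were 0.10 and 0.11.

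Hsph1 encodes HSP110, an exchange factor of the cytosolic HSP70s. Hsph1 (ENSMUSG00000029657, chr5:149614287-149636376) stood at 57.4 TMM CPM in the naive library, 139 in No treatment, 87.3 in MEP1+CMC, 85.3 in MEP1+Metformin, 76.2 in MEP1+Rapamycin and 104 in the combination. It was lowest in the naive library and highest in No treatment, unlike Hspa1a and Hspa1b. Metformin gave a log2 ratio of -0.03 (interval -0.09 to 0.03) without rapamycin and 0.45 (0.39 to 0.52) with it, and rapamycin gave -0.20 (-0.26 to -0.13) and 0.29 (0.23 to 0.35). The fitted changes were 0.21 and 0.05 (SE 0.21 each), with edgeR adjusted p of 0.818 and 0.987.

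Hsp90aa1 and Hsp90ab1 encode the inducible and the constitutive cytosolic HSP90, which hold kinases and steroid receptors ready for activation. Hsp90aa1 (ENSMUSG00000021270, chr12:110690605-110702728) stood at 275 TMM CPM in the naive library, 430 in No treatment, 404 in MEP1+CMC, 336 in MEP1+Metformin, 420 in MEP1+Rapamycin and 347 in the combination. Hsp90ab1 (ENSMUSG00000023944, chr17:45567775-45573271) stood at 1041, 1633, 1231, 997, 1281 and 1072 in the same order. Among the MEP1 libraries, the 2 with metformin were the lowest for each gene. The metformin log2 ratios without and with rapamycin were -0.26 and -0.28 for Hsp90aa1 and -0.30 and -0.26 for Hsp90ab1, and the rapamycin ratios lay between 0.04 and 0.10. In the metformin term, edgeR gave adjusted p of 0.770 and 0.777 for the 2 genes.

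Hspa5 encodes BiP, the HSP70 of the endoplasmic reticulum and the main sensor partner of the unfolded protein response. Hspa5 (ENSMUSG00000026864, chr2:34771970-34777547) stood at 814 TMM CPM in the naive library, 1752 in No treatment, 1657 in MEP1+CMC, 1292 in MEP1+Metformin, 810 in MEP1+Rapamycin and 997 in the combination. The library with rapamycin alone was at the level of the naive library, and No treatment and MEP1+CMC were the highest. Rapamycin gave a 2.05-fold lower level without metformin (log2 ratio -1.03, interval -1.05 to -1.01) and a 1.30-fold lower level with it (-0.37, -0.39 to -0.36). The first value came out at -0.87 to -0.93 with library totals, DESeq2's size factors, TMM over the kept genes or the trend on exon length removed, under the 2-fold rule. Metformin gave -0.36 (-0.37 to -0.34) without rapamycin and 0.30 (0.28 to 0.32) with it. The fitted rapamycin change of -0.70 (SE 0.25) had an unadjusted p of 0.00927 and an edgeR adjusted p of 0.477.

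**Figure D4:**
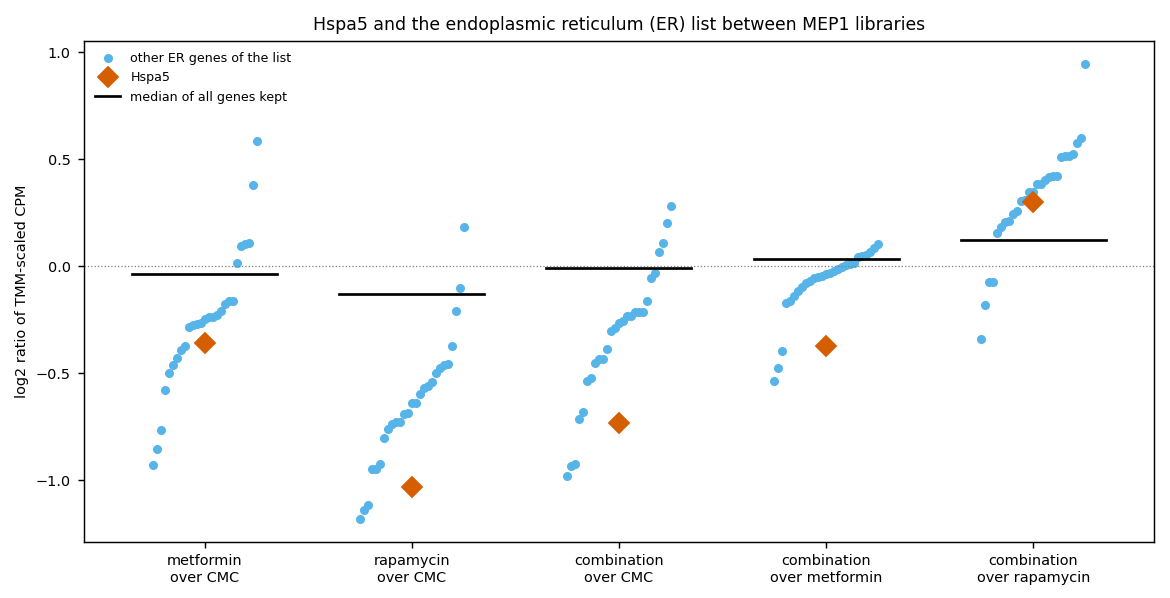
Log2 ratios of Hspa5 (diamonds) and of 27 other genes of the endoplasmic reticulum chaperones and unfolded protein response (circles, sorted) in 5 pairs of MEP1 libraries; black lines are the medians of all genes kept. In MEP1+Rapamycin over MEP1+CMC, 26 of the 27 genes lie below 0, beside 60.9% of all genes. Their median is -0.64, while the median of all genes is -0.13.

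Of the other 27 genes of the endoplasmic reticulum list, 26 were lower in MEP1+Rapamycin than in MEP1+CMC, beside 60.9% of all genes. Their median log2 ratio was -0.64 against -0.13 over all genes. The largest differences were those of Hyou1, an HSP70 relative of the same compartment (27.2 against 61.7 TMM CPM, log2 ratio -1.18), the co-chaperone Dnajb9 (24.4 against 53.6, -1.14), the BiP partner Sdf2l1 (52.3 against 113, -1.12) and the stress sensor Atf6 (17.2 against 33.3, -0.95). With metformin present, rapamycin gave a list median of -0.03 against 0.03 over all genes, and 18 of 27 genes were lower, beside 43.6% of all genes. The combination stood above MEP1+Rapamycin in 23 of 27 genes, beside 61.0% of all genes, with a median of 0.35 against 0.12 over all genes. The edgeR rapamycin term called 0 of the 27 genes, with 5 at an unadjusted p below 0.05, beside 6.47% of all genes. Summed plasma-cell markers, cells rich in these chaperones, stood at 1241 TMM CPM in MEP1+CMC, 714 in MEP1+Metformin, 841 in MEP1+Rapamycin and 1125 in the combination, and at 1735 in No treatment and 1023 in the naive library. All 18 CD4 T-cell genes were also lower in MEP1+Rapamycin than in MEP1+CMC (median -0.38), beside 60.9% of all genes. In bulk samples such as these, fewer cells of a type and less RNA per cell cannot be told apart, and the part of either in the Hspa5 values was not tested.

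Hspd1 and Hspe1 encode HSP60 and HSP10, the barrel and the lid of the mitochondrial chaperonin. Hspd1 (ENSMUSG00000025980, chr1:55077835-55088243) stood at 87.9 TMM CPM in the naive library, 140 in No treatment, 101 in MEP1+CMC, 109 in MEP1+Metformin, 86.5 in MEP1+Rapamycin and 110 in the combination. Hspe1 (ENSMUSG00000073676, chr1:55088132-55091307) stood at 84.7, 79.9, 54.0, 43.0, 80.8 and 57.3 in the same order. The partners differed in direction: with metformin Hspd1 had log2 ratios of 0.12 and 0.35 and Hspe1 -0.33 and -0.50, and with rapamycin Hspd1 had -0.22 and 0.01 and Hspe1 0.58 and 0.42. Across the 6 libraries their log2 levels had a Pearson r of -0.19, given as a description only. The fitted rapamycin change of Hspe1 was 0.50 (SE 0.20, unadjusted p = 0.0223, edgeR adjusted p = 0.640) and its metformin change -0.41 (SE 0.20, edgeR adjusted p = 0.670). The exons of the 2 genes overlap at their shared end, so without a known strand setting reads there cannot be assigned with certainty. Genes of short exon length had other medians than long ones in these pairs: in the combination over MEP1+Rapamycin, the third of genes with the shortest exons had a median of -0.12 and the third with the longest 0.25, and Hspe1 has the shortest exons of the 10.

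**Figure D5:**
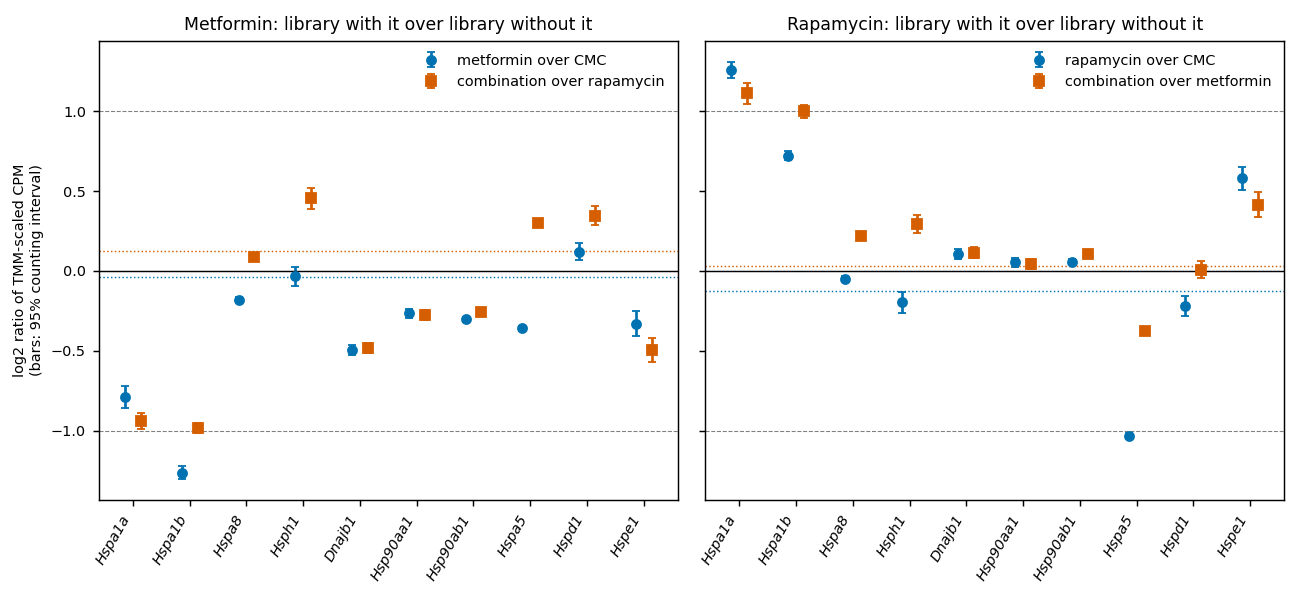
Log2 ratios of TMM CPM for the 10 genes with 95% counting intervals; left, the libraries with metformin over those without, and right, the same for rapamycin, each without (circles) and with (squares) the other inhibitor. Dotted lines are the medians of all genes and dashed lines the 2-fold rule; Hspa1a and Hspa1b lie lowest for metformin and highest for rapamycin.

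Set side by side, metformin gave lower levels in both pairs, with counting intervals that exclude no change, for 6 of the 10 genes: Hspa1a, Hspa1b, Hsp90aa1, Hsp90ab1, Dnajb1 and Hspe1. The same held for 13.1% of all genes. These 6 were in the lower set under each of the 5 other scalings tried, and Hspa8 joined them under 3. Counting intervals narrow as counts grow, so genes with many counts meet this rule at smaller ratios. By mean level the 10 genes ranked from 44 to 3098 among the 12928 genes kept. The shares of all genes given here were not matched for level. Hspd1 was higher in both pairs, as were 18.9% of all genes. Rapamycin gave higher levels in both pairs for Hspa1a, Hspa1b, Hsp90aa1, Hsp90ab1, Dnajb1 and Hspe1, 6 of 10 beside 11.0% of all genes, and a lower level in both for Hspa5, beside 14.2% of all genes. For rapamycin, Hsp90aa1 left this set under 3 scalings and Hspa8 joined it under 4. The metformin and rapamycin pairs are made from the same 4 libraries, so the 2 sets of 6 genes are not independent. Hspa1a and Hspa1b also share reads and are not separate observations. The direction differed between the 2 pairs for 2 of the 10 with metformin, Hspa5 and Hspa8, beside 22.8% of all genes, and for 2 with rapamycin, Hspa8 and Hsph1, beside 19.6%. Past the 2-fold rule, metformin over CMC held Hspa1b (background 5.78% of genes), the combination over MEP1+Rapamycin held none (6.56%), rapamycin over CMC held Hspa1a and Hspa5 (11.2%), the combination over MEP1+Metformin held Hspa1a and Hspa1b (3.07%) and the combination over MEP1+CMC held none (6.82%). In the combination over MEP1+Rapamycin, both Hspa1 copies passed 2-fold under DESeq2's size factors (-1.08 for Hspa1a and -1.12 for Hspa1b).

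The other chaperone lists gave no calls for either inhibitor. Of the other HSP70 family genes, 7 of 7 kept were lower in MEP1+Rapamycin than in MEP1+CMC, beside 60.9% of all genes. Their median log2 ratio was -0.77 against -0.13 over all genes. In the combination over MEP1+Metformin 5 of 7 were lower (median -0.07), beside 43.6% of all genes. At an unadjusted p below 0.05, edgeR held 2 of the 7 for rapamycin and 0 for metformin. The 2 other HSP90 genes and 2 small heat shock protein genes kept were not called. None of the 27 J-domain co-chaperones, 23 HSP70 and HSP90 co-chaperones and exchange factors, 14 TRiC and prefoldin subunits, 13 mitochondrial chaperones and proteases or 4 heat shock factor genes kept was called in the metformin or the rapamycin term by edgeR. At an unadjusted p below 0.05 in edgeR, the metformin term held 1, 1, 0, 0 and 0 of them in the same order, beside 7.39% of all genes. The rapamycin term held 2, 0, 0, 1 and 0, beside 6.47% of all genes. Hsf1, the factor that drives the inducible genes, stood at 80.1 to 99.6 TMM CPM over the 6 libraries. Among the J-domain genes, Dnaja4 was 13.6 TMM CPM in MEP1+Rapamycin, 29.9 in MEP1+CMC and 26.6 in the combination. Fkbp4, an HSP90 co-chaperone of steroid receptors, was 149 TMM CPM in MEP1+Rapamycin and 215 in the combination. TRiC, the cytosolic chaperonin, and prefoldin, which feeds it, had 13 of 14 subunits lower in MEP1+Metformin than in MEP1+CMC, beside 54.1% of all genes. The median was -0.19 against -0.04 over all genes. In the combination, 7 of 14 were lower than in MEP1+Rapamycin, beside 39.0% of all genes.

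As a list, immediate early genes, which dissociation and activation also induce, had a median that differed from the Hspa1 copies in direction for rapamycin. In the rapamycin term edgeR called 2 of 20 lower and none higher, beside 0.309% of all genes called in either direction. Egr1 fell by 1.48 (SE 0.25, edgeR adjusted p = 0.0065) and Egr2 by 1.07 (SE 0.23, edgeR adjusted p = 0.0466). The list's median fitted change was -0.52 for rapamycin and -0.28 for metformin. With rapamycin this median and the Hspa1 copies differed in sign, and with metformin they shared it. Single genes varied: 16 of 20 were lower and 4 higher in MEP1+Rapamycin than in MEP1+CMC, beside 60.9% of all genes lower. In the combination 20 of 20 were lower than in MEP1+Metformin, beside 43.6% of all genes. The part of dissociation in these values was not tested. The summed level of the list was 19880 TMM CPM in MEP1+CMC, 15975 in MEP1+Metformin, 13653 in MEP1+Rapamycin and 11532 in the combination.

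MEP1+CMC against No treatment compares cells with and without the earlier course of MEP1 and CMC, with no inhibitor in either group. By label and protocol both groups received the later MEP1 challenge before the sort, although the No treatment count column is headed no challenge. Sex-linked expression differed as well. Of 5 sex-linked genes, 4 were lower and 1 was higher in MEP1+CMC, all past the 2-fold rule, with a median log2 ratio of -6.80. The part of that difference in the chaperone values was not tested. Levels were lower in MEP1+CMC for 8 of 10 genes, beside 54.1% of all genes. The median log2 ratio was -0.28 against -0.04 over all genes, and none of the 10 passed the 2-fold rule (background 11.9%). Hsph1 had the largest difference downwards (-0.67, interval -0.72 to -0.61), followed by Hspe1 (-0.56) and Hspd1 (-0.47). Hspa8 had -0.43 and Hsp90ab1 -0.41, and with library totals the small negative values of Hspa5 and Hsp90aa1 changed sign. Hspa1a and Hspa1b were higher, by 0.76 and 0.67. Against all 4 MEP1 libraries together, edgeR called none of the 10 (background 1.93%). The DESeq2 Wald test called none either (background 8.99%), nor did edgeR with library totals (1.24%). Hsph1 was lower in 4 of 4 MEP1 libraries (fitted change -0.65, SE 0.21, edgeR adjusted p = 0.173). The co-chaperones Cacybp (87.1 against 147 TMM CPM), Ahsa1, an activator of HSP90 (110 against 182), and Stip1, the adaptor between HSP70 and HSP90 (157 against 251), were also lower in MEP1+CMC than in No treatment. The macrophage markers fell in the same comparison: 13 of the 16 tested were called lower in the MEP1 libraries by edgeR, and their part in the chaperone values was not tested.

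No treatment against the naive control compares cells that were transferred and immunised with cells labelled naive. The 2 libraries also differ in sex-linked expression. Of 5 sex-linked genes, 4 were past the 2-fold rule and higher in No treatment and 1 was lower, with a median log2 ratio of 6.57. For the transferred libraries against naive, their median fitted log2 change was 8.66. The part of this difference in the chaperone values was not tested. Levels were higher in No treatment for 7 of 10 genes, beside 55.3% of all genes. The median log2 ratio was 0.55 against 0.09 over all genes. Hsph1 was 2.41-fold higher (1.27, interval 1.18 to 1.37) and Hspa5 2.15-fold higher (1.11, 1.08 to 1.13), the 2 genes past the 2-fold rule (background 23.5%). Hspd1, Hsp90ab1 and Hsp90aa1 followed with 0.67, 0.65 and 0.65 and Hspa8 with 0.45. Hspa1a, Hspa1b and Hspe1 had -0.03, -0.12 and -0.08, values that turned positive with library totals. For the 5 transferred libraries against the naive library, edgeR called none of the 10 (background 9.69%). Hsph1 had a fitted change of 0.78 (SE 0.34, higher in 5 of 5). Scaled by library totals instead, 5 of the 10 were called, Hspa5, Hsp90aa1, Hsp90ab1, Hsph1 and Hspd1, beside 20.2% of all genes, a change of scaling that moves the median of all genes by 0.42 in No treatment over naive. The DESeq2 Wald test called Hsph1, beside 29.2% of all genes. Of the J-domain list, edgeR called Dnaja4 (3.05, SE 0.60, adjusted p = 0.0154), Dnajb14 (1.87) and Dnajc21 (1.28) higher and Dnajb5 lower (-1.14) in the transferred libraries, and Hspa4l, an HSP110 relative of Hsph1, was called higher (1.67, SE 0.38, adjusted p = 0.0231). Bag6 (-1.66) and Hspbp1 (-1.25), cytosolic HSP70 co-chaperones, were called lower.

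Outside these lists, the genes whose log2(TMM CPM + 1) over the 6 libraries was most like the mean profile of the 10 were Ufsp2 (Pearson r 0.977), Ptpmt1, Scnm1, Mrpl45 and Socs4, from 9238 genes compared. Ufsp2 ranged from 18.9 to 23.6 TMM CPM, and with 6 points from as many libraries the likeness is a description only. Among the 10 genes themselves, Hspa1a and Hspa1b had an r of 0.91, over libraries in which they share reads, Hsp90aa1 and Hsp90ab1 0.79 and Hspa1a and Hspa5 -0.46.

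Sequence shared with other genes bears on how firmly each level can be read. Of the 50-base stretches in their transcripts, 47.5% for Hsp90aa1, 42.1% for Hspd1, 39.4% for Hspa8 and 22.8% for Hspe1 also occur in transcripts of other genes. The share was 3.44% for Hsp90ab1, 0.412% for Dnajb1 and 0 for Hspa5 and Hsph1. Outside the 10, those other genes that were counted held few counts. Genes outside the 10 that share at least 1% of the stretches held 4.22% to 7.95% of the counts of Hsp90aa1 itself. They held at most 2.71% for Hspd1, at most 1.47% for Hspa8 and at most 1.07% for Hspe1. Only 2 of 3 such genes for Hspd1 and Hspe1 and 10 of 11 for Hspa8 were among the genes counted. For Hspe1 the missing gene is AC117239.2, which holds 17.9% of its stretches. The treatment of multiply aligned reads is not given, so few counts at such genes do not show that few reads were shared.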

How the data were processed

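Each deposited file holds the unnormalized counts of 1 library, whole numbers of reads over the exons of each gene. The submitters' processing notes name build GRCm38 and, with no roles or order, STAR 2.5.2b, Trimmomatic 0.36 and, from Subread 1.5.2, featureCounts. Strand setting, annotation release and the treatment of multiply aligned reads are not given in the sources used here. Samples were grouped by their labels. Symbols came from GENCODE M21, which holds 48970 of the 49315 identifiers and gives the same positions as the files for all 10 chaperone genes.

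Counts were scaled by TMM over all genes (edgeR 4.0.16, R 4.3.3), and genes with at least 2 CPM and at least 10 counts in at least 1 library were kept. Ratios between 2 libraries carry an exact 95% Clopper-Pearson interval of their 2 counts (scipy 1.17.1), which covers counting error only, and a count of 0 was set to a floor of 3 counts. A gene passed the 2-fold rule when its interval left out no change and the ratio reached 2-fold. edgeR's quasi-likelihood test, robust, was run over all genes kept, called at an adjusted p of 0.05, for 4 comparisons: the metformin and rapamycin terms, the 5 transferred libraries against the naive library and the 4 MEP1 libraries against No treatment. In the last pair the lone library is assumed to vary like the others, whose spread includes their treatments. No label says that libraries are independent cultures or animals, so a p-value here reflects the spread among these libraries and may be technical. In the metformin and rapamycin terms that spread comes from the departure from additivity and not from replicates. DESeq2 1.42.0, other scalings, filters and left-out libraries were alternatives. Scripts were tested on simulated data.

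The members and the lists were chosen with earlier results of these data known. All 10 members are named, and of each other list at most 4 genes per comparison, those with the largest ratio at 10 TMM CPM or more in either library, or the called genes with the smallest p. Single values of marker genes (Cd4, Xist, Ddx3y) and of Hsf1, Dnaja4 and Fkbp4 across libraries follow their place in those lists or in the checks of the labels. The genes most like the members are the 5 with the highest Pearson r to their mean profile. Sequences are RefSeq windows, and shared stretches were searched in GENCODE M21 transcripts on both strands.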

Additional observations from a re-analysis of the deposited data

Results flagged for a closer look

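In 3 of the 10 genes, an inhibitor went with a lower level in 1 setting and a higher level in the other, each with a counting interval that excludes no change. This was so for 2 of the 10 with metformin, beside 22.8% of all genes, and for 2 of the 10 with rapamycin, beside 19.6% of all genes, so the share among the chaperones was near the background. For Hspa5, the metformin log2 ratio was -0.36 without rapamycin and 0.30 with it, a difference of 0.66. For Hspa8, the metformin ratio was -0.18 without and 0.09 with rapamycin, a difference of 0.27, and the rapamycin ratio was -0.05 without and 0.22 with metformin, again 0.27, since both differences are made from the same 4 libraries. For Hsph1, the rapamycin ratio was -0.20 without and 0.29 with metformin, a difference of 0.49. Each setting has 1 library per condition, and the differences were not tested. All of them involve the MEP1+Rapamycin and MEP1+CMC libraries, and the sign of the small Hspa8 values depends on the scaling.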

How the results depend on the processing

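No paired analysis was possible because each condition had 1 library and no replicate numbers. Leaving out a library of the 2 by 2 design leaves no residual degree of freedom, so the pairs of libraries in the report stand in for it.

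Members past the 2-fold rule in No treatment over naive numbered 5 in place of 2 with library totals or a 1.5-fold rule. The 1.5-fold rule also gave 3 in place of 0 for MEP1+CMC over No treatment, 2 in place of 1 for metformin over CMC, 2 in place of 0 for the combination over rapamycin and 1 in place of 0 for the combination over CMC. For the combination over rapamycin, library totals gave 1, and DESeq2 size factors and TMM over the kept genes 2, in place of 0. For rapamycin over CMC and the combination over metformin, library totals, DESeq2 size factors, TMM over the kept genes and the trend on exon length removed each gave 1 in place of 2. The last 2 of these settings, and the sum of the Hspa1 copies, were chosen after seeing the data.

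In the metformin term and the rapamycin term alike, members called numbered 2 in place of 1 under DESeq2 size factors in edgeR, the DESeq2 Wald test, TMM over the kept genes or the stricter filter, and 0 with no filter or with Hspa1a and Hspa1b summed. Genes called in the metformin term numbered 24, and 11 with library totals and 0 with no filter. In the rapamycin term they numbered 40, and 19 with library totals, 76 with the DESeq2 Wald test, 0 with no filter and 141 with the stricter filter. For transferred against naive, members called were 0, with 5 under library totals and 1 under the DESeq2 Wald test, and genes called were 1253, with 2606 under library totals, 3771 under the DESeq2 Wald test, 2290 under the legacy quasi-likelihood fit and 694 to 2938 with 1 library left out (2938 without No treatment, 833 without MEP1+CMC, 753 without MEP1+Metformin, 694 without the combination). For MEP1 against no treatment, genes called were 250, with 160 under library totals, 1162 under the DESeq2 Wald test, 395 with no filter and 142 to 322 with 1 library left out (142 without MEP1+Metformin). No called value of a member changed sign under any alternative run. The cause of these changes was not tested.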
